A study of Homo sapiens with 4 samples.

Results

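Of the 16878 genes in the RNA-seq tables of PANC-1 cells, 56 belonged to a list of interferon signaling and response genes and were taken by symbol. The list held 10 receptors and factors, 9 nucleic acid sensors, 30 antiviral effectors and 7 guanylate-binding protein (GBP) and PARP genes, and all 56 were found. PANC-1 is an established human pancreatic cancer cell line that grows as an adherent epithelial culture. Total RNA had been sequenced from 2 libraries labelled Control and 2 labelled siSIRT1, in which a small interfering RNA against the deacetylase SIRT1 was used, 48 h after treatment. The labels name no interferon, virus or other agent for either group, and do not say what the Control cells received. A single line and a single siRNA sequence stood for the knockdown, and nothing in the labels says that the 2 libraries of a group came from separate cultures, so the p-values below measure only the spread between these libraries, which may be technical.

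Type I interferons bind the receptor made of IFNAR1 and IFNAR2, and interferon gamma binds the receptor made of IFNGR1 and IFNGR2. From the type I receptor, Janus kinases phosphorylate STAT proteins, STAT2 among them, which join IRF9 to form a complex that enters the nucleus and binds the interferon-stimulated response element (ISRE) in the promoters of antiviral genes. Sensors of foreign nucleic acid, such as the RNA helicases IFIH1 and DDX58, act upstream through IRF3 and IRF7 to switch on the interferon genes themselves, and many of these sensors are in turn interferon-stimulated. Epithelial cells can express low levels of many of these genes without added interferon.

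The agent named siSIRT1 is given in the study's oligonucleotide list by the following strand, shown because it is the treatment that names the group.

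siSIRT1: gugucaugguuccuuugca

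The ISRE core was searched as GAAA, any 2 bases and GAAA, on both strands of the promoter window from 250 bases before to 50 bases after the first listed start of each gene (RefSeq, GRCh38.p14). Windows were at hand for 42 of the 56 genes, and 24 of these 42 (57.1%) held the motif, against 996 of all 27305 promoters of the table (3.65%) and 260 of the 9984 promoters of tested genes (2.6%). The following 30 bases from 7 of these promoters, on the strand of the gene and with the motif or its reverse complement in capitals, are shown for 4 genes that rose with siSIRT1 (IFI6, OAS3, ISG15 and IFITM3), for IFIT1, which fell, and for IFIT3 and IFIT5, which did not pass the test.

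IFI6, chr1:27672288-27672317, minus strand: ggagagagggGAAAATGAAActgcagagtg

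OAS3, chr12:112938321-112938350, plus strand: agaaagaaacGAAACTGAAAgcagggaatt

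ISG15, chr1:1013380-1013409, plus strand: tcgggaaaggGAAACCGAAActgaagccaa

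IFITM3, chr11:320876-320905, minus strand: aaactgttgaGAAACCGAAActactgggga

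IFIT1, chr10:89392510-89392539, plus strand: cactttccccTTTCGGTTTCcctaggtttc

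IFIT3, chr10:89327865-89327894, plus strand: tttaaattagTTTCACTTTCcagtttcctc

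IFIT5, chr10:89414513-89414542, plus strand: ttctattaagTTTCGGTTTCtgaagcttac

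Counted from the start of the gene, the first base of the motif lay at -115 in IFI6, -143 in OAS3, -107 in ISG15, -35 in IFITM3, -103 in IFIT1, -122 in IFIT3 and -45 in IFIT5. The motif was present in 8 of 12 promoters of genes that rose, 1 of 3 of genes that fell, 8 of 17 of genes that did not pass the test and 7 of 10 of genes below the expression filter. By role it was found in 16 of 24 antiviral effectors, 5 of 6 GBP and PARP genes, 3 of 6 sensors and 0 of 6 receptors and factors. A match describes the letters of the window and was not tested as a binding site, and promoters of PML, GBP2, IFITM2, DHX58, OASL, TRIM22, MX2, OAS2, IFNAR2, IFIT2, IRF2, USP18, IRF7 and IRF3 were not analysed here.

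**Figure D1:**
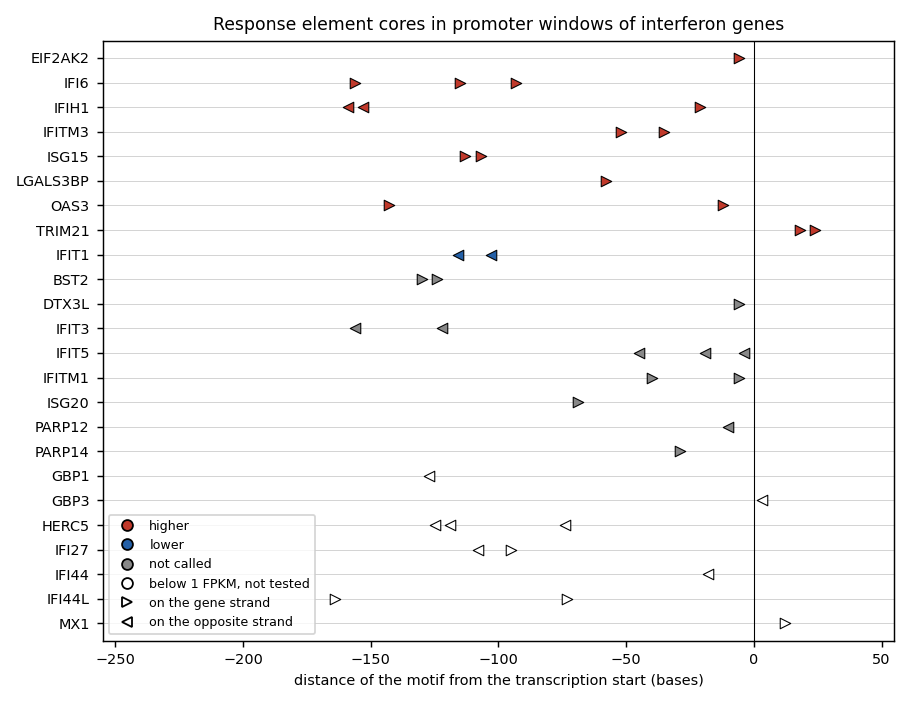
Positions of the ISRE core (either strand) in the promoters of the interferon genes that held it, as the distance in bases of the motif's first base from the gene's start, with genes in rows and marks set by the call of siSIRT1 against Control. Motifs lay on both sides of the start, from -164 (IFI44L) to 24 (TRIM21), in genes that rose, fell, did not pass the test or were not tested.

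The levels were FPKM, fragments scaled to transcript length and to the mapped fragments of the library. The steps between low values gave about 8990000 and 9080000 reads for the Control libraries and 8760000 and 8900000 for the siSIRT1 libraries. SIRT1 had 10.5 and 10.3 FPKM in the Control libraries and 1.80 and 2.05 FPKM under siSIRT1 (log2 fold change -1.96, SE 0.11, adjusted p = 1.33e-05), so the targeted gene followed the labels. Of the 6 epithelial markers, KRT8 (2164 to 2745 FPKM), KRT18 and KRT19 were high and carried nearly all of the summed level. This sum was 4198 and 3975 FPKM in Control and 5070 and 4677 in siSIRT1. KRT7, EPCAM and CDH1 were low, reaching at most 11.2 FPKM. CDH1 moved against the sum, from 3.89 and 3.75 FPKM in Control to 3.05 and 3.25 in siSIRT1, and was not called. The groups overlapped for KRT7, with means of 3.465 FPKM in Control and 3.14 in siSIRT1. KRT18 and KRT19 were called higher in limma (adjusted p = 0.035 and 0.0178), 33.3% of the 6 against 24.0% of all genes tested. The summed level of the 5 leukocyte markers in the tables overlapped between groups (21.8 and 24.1 FPKM in Control, 25.7 and 20.9 in siSIRT1), with LYZ as its largest term. Within it ITGAM was higher in both siSIRT1 libraries (0.12 and 0.15 FPKM, then 0.74 and 1.09) and CD14 lower (5.11 and 5.49 FPKM, then 4.45 and 3.17), with ITGAM below the filter and CD14 not called, and their part in the results was not tested. The summed level of the 2 fibroblast markers reached at most 0.1 FPKM. A bulk level does not separate a change in the number of expressing cells from a change in RNA per cell.

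Fold changes below are siSIRT1 minus Control on log2(FPKM + 1), which understates the change of low genes, and a gene was called at a Benjamini-Hochberg adjusted p under 0.05 in limma, over the 12191 genes whose mean reached 1 FPKM. Of the 56 interferon genes, 43 passed this filter. Of these 43, 15 rose with siSIRT1, 5 fell and 23 were not called, or 34.9% higher and 11.6% lower, against 24.0% higher and 13.1% lower of all genes tested (46.5% against 37.1% in either direction). Their median log2 fold change was 0.16, beside 0.074 over all genes tested. The list was chosen with earlier results of these data known, and its difference from all genes tested was not tested. The siSIRT1 libraries were both above both Control libraries for 23 of the 43 and both below for 9, where 43.8% and 25.2% of all genes tested did so (69.0% in either direction). Among all genes tested, rises were 64.8% of the calls, against 49.6% with median-of-ratios scaling and 53.3% with quantile normalization. With either scaling 12 interferon genes rose and 5 fell. Over all 12191 genes tested, 2023 rose and 2053 fell with median-of-ratios scaling, and 2279 and 1996 with quantile normalization. By role, 12 of the rises were effectors and 3 were sensors, and differences between roles were not tested.

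**Figure D2:**
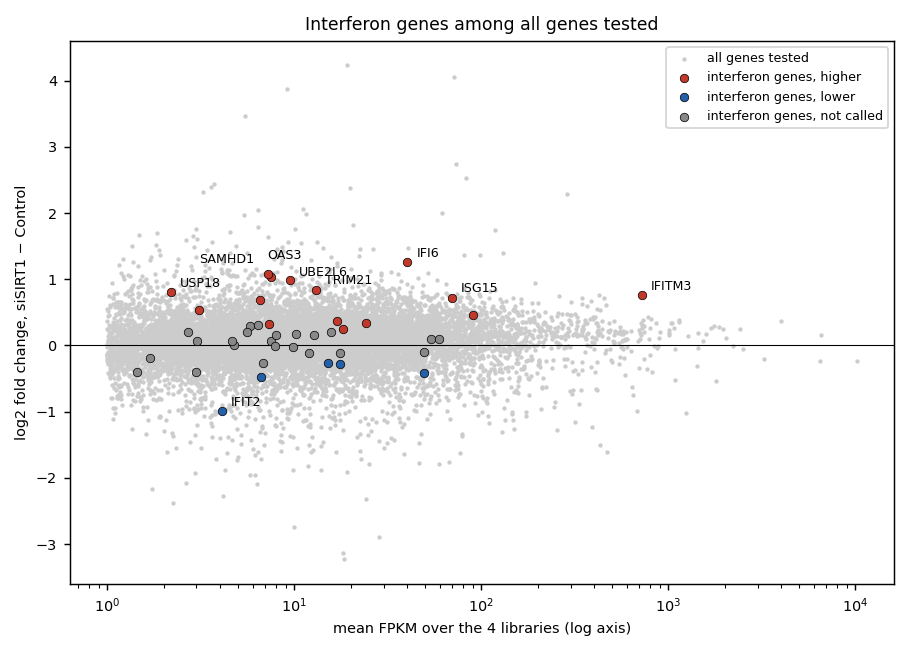
Log2 fold change of siSIRT1 against Control (vertical axis, log2(FPKM + 1) scale) against mean FPKM over the 4 libraries (logarithmic horizontal axis), with all genes tested as small light dots and the 43 tested interferon genes as larger points in red (higher), blue (lower) or dark grey (not called). IFI6 lay highest among the interferon genes at 1.26 and IFIT2 lowest at -0.99, and IFITM3 was the most abundant.

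Antiviral effectors were 22 of the 43 tested genes. Of these 22, 12 rose (54.5%, against 24.0% of all genes tested), 3 fell (13.6%, against 13.1%) and 7 were not called, with a median log2 fold change of 0.32. Fewer effectors were called higher, and fewer lower, when either Control library was left out. Of 30 effectors in the list, the others were below the filter. IFI6, a small membrane protein that protects cells from flavivirus infection and from apoptosis, stood at 23.0 and 23.5 FPKM for Control and at 61.2 and 53.5 FPKM for siSIRT1. The siSIRT1 libraries were far above the Control libraries. The mean level was 2.47 times that of Control (log2 fold change 1.26, SE 0.08, adjusted p = 1.67e-05), and its rise ranked 64 among the 12191 genes tested.

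SAMHD1, a dNTP hydrolase that starves retroviruses of nucleotides, measured 3.76 and 4.84 FPKM with Control against 9.89 and 10.3 FPKM with siSIRT1 (log2 fold change 1.08, SE 0.12, adjusted p = 0.00035). UBE2L6, the E2 enzyme that transfers ISG15 onto its targets, had 6.14 and 5.89 FPKM in the Control libraries and 13.2 and 12.6 FPKM under siSIRT1 (log2 fold change 0.99, SE 0.09, adjusted p = 0.000141). The groups were well apart for both genes, with siSIRT1 means of 2.35 and 2.15 times Control.

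Besides UBE2L6, 2 further tested genes of ISG15 conjugation were above Control. ISG15 itself, a ubiquitin-like protein that is attached to proteins or secreted, stood at 55.8 and 48.7 FPKM for Control and at 95.1 and 78.2 FPKM for siSIRT1 (log2 fold change 0.72, SE 0.10, adjusted p = 0.000883). USP18, the protease that removes ISG15 and dampens type I receptor signaling, measured 1.16 and 1.49 FPKM with Control against 3.64 and 2.50 FPKM with siSIRT1 (log2 fold change 0.80, SE 0.17, adjusted p = 0.00642). The groups did not overlap for either gene, and the siSIRT1 libraries differed more from each other than the Control libraries did. TRIM25, an E3 ubiquitin ligase that also conjugates ISG15 and activates DDX58, moved the other way, with 19.0 and 19.5 FPKM in the Control libraries, against 14.9 and 16.5 FPKM in siSIRT1 (log2 fold change -0.28, SE 0.08, adjusted p = 0.0284). This call was lost in the fit without a filter on low values (adjusted p = 0.0625), in that without a mean-variance trend (0.0562), and without Control replicate 1 (0.117), Control replicate 2 (0.175) or siSIRT1 replicate 1 (0.0811).

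IFITM3, a membrane protein that blocks virus entry from endosomes, was the most abundant interferon gene in the list. It had 539 and 531 FPKM in the Control libraries and 979 and 835 FPKM under siSIRT1, 1.69 times higher on average (log2 fold change 0.76, SE 0.08, adjusted p = 0.000294). Its neighbours in the family were not called: IFITM1 stood at 5.30 and 4.86 FPKM for Control and at 7.55 and 5.55 FPKM for siSIRT1 (adjusted p = 0.132). IFITM2 measured 57.5 and 56.6 FPKM with Control against 65.9 and 56.7 FPKM with siSIRT1 (adjusted p = 0.359). Without siSIRT1 replicate 2 both were called higher (adjusted p = 0.0213 and 0.0307). Of the 50-base words in the transcripts of IFITM3, IFITM1 and IFITM2, 17.6%, 15.8% and 5.3% also occurred in another gene of the tables, so reads could be split between them and the values of the family carry that uncertainty.

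TRIM21, a cytosolic antibody receptor and E3 ligase, had 9.84 and 8.35 FPKM in the Control libraries and 18.5 and 15.8 FPKM under siSIRT1 (log2 fold change 0.84, SE 0.11, adjusted p = 0.000658). MX2, a dynamin-like GTPase that blocks nuclear entry of HIV-1, registered 5.20 and 4.35 FPKM in the Control libraries, against 8.29 FPKM in both siSIRT1 libraries (log2 fold change 0.69, SE 0.11, adjusted p = 0.00201). Its paralog MX1 was below the filter in these cells, at 0.51 and 0.27 FPKM in the Control libraries, against 0.73 and 1.08 FPKM in siSIRT1.

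LGALS3BP, a secreted galectin-binding glycoprotein, had a smaller rise with little spread, from 77.5 and 74.8 FPKM to 107 and 103 FPKM (log2 fold change 0.46, adjusted p = 0.000563). PML, the organiser of nuclear bodies, rose from a mean of 21.2 to 27.2 FPKM (log2 fold change 0.34, adjusted p = 0.00884), which was lost without Control replicate 2 (0.0839). SP100, another nuclear body protein, went from a mean of 6.39 to 8.32 FPKM (0.33, adjusted p = 0.041). IFI35, an interferon-induced leucine zipper protein, stood at 16.97 and 16.32 FPKM for Control and at 19.04 and 20.97 FPKM for siSIRT1 (0.25, adjusted p = 0.04). The calls of SP100 and IFI35 were lost in the fit without a filter on low values (adjusted p = 0.0906 and 0.0768), under median-of-ratios scaling (0.0918 and 0.15), under quantile normalization (0.0534 and 0.132), and without Control replicate 1 (0.178 and 0.132), Control replicate 2 (0.144 and 0.229) or siSIRT1 replicate 2 (0.127 and 0.112). The call of IFI35 was also lost without the mean-variance trend (0.0743).

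**Figure D3:**
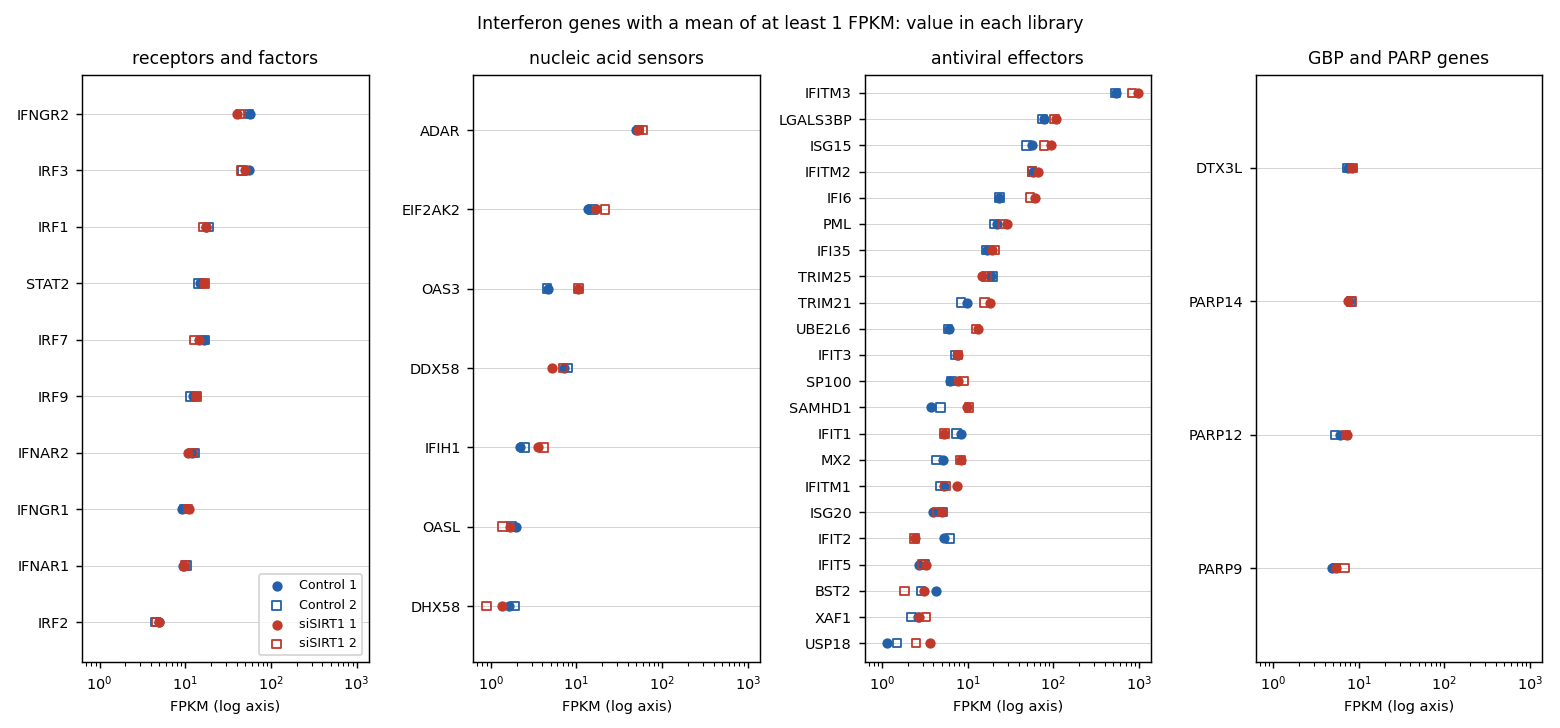
FPKM in each of the 4 libraries (logarithmic horizontal axis) for the 43 tested interferon genes, in 1 panel per role and in order of mean level, with Control in blue, siSIRT1 in red, and filled circles and open squares for replicates 1 and 2. The red marks lay to the right of the blue for 23 genes, widely so for IFI6, OAS3, SAMHD1 and UBE2L6, and to the left for 9, widely so for IFIT2.

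Of the 4 IFIT genes, which lie close together on chromosome 10 and encode proteins that bind viral RNA or translation factors, 2 fell and 2 were not called. IFIT2 registered 5.32 and 6.22 FPKM in the Control libraries, against 2.41 FPKM in both siSIRT1 libraries, about 158 and 187 reads against 70 and 71. Its level in siSIRT1 was 0.418 times that in Control (log2 fold change -0.99, SE 0.12, adjusted p = 0.000514), the largest fall among the tested interferon genes on the log2 scale. IFIT1 measured 8.40 and 7.43 FPKM with Control against 5.37 and 5.36 FPKM with siSIRT1 (log2 fold change -0.48, SE 0.11, adjusted p = 0.00823), and this call was lost without Control replicate 1 (0.0912). IFIT3 had 7.54 and 7.18 FPKM in the Control libraries and 7.81 and 7.68 FPKM under siSIRT1, a log2 difference of 0.07 with a 95% interval from -0.16 to 0.29. IFIT5 stood at 2.73 and 3.16 FPKM for Control and at 3.23 and 2.96 FPKM for siSIRT1, with a difference of 0.06 and an interval from -0.24 to 0.35. Under median-of-ratios scaling the differences of IFIT3 and IFIT5 were both -0.01.

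Of the remaining tested effectors, BST2, which tethers budding virions to the cell surface, measured 4.24 and 2.84 FPKM with Control against 3.07 and 1.84 FPKM with siSIRT1 (adjusted p = 0.161). ISG20, an exonuclease, had group means of 4.53 and 4.77 FPKM (adjusted p = 0.735). XAF1, which antagonises the apoptosis inhibitor XIAP, had group means of 2.42 and 2.98 FPKM (adjusted p = 0.261). The ranges of the groups overlapped for BST2 and ISG20.

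Of the nucleic acid sensors 7 were tested, and 3 rose (42.9%, against 24.0% of all genes tested) and 0 fell in limma (1, DHX58, had an unadjusted p under 0.05), with a median log2 fold change of 0.10. Without Control replicate 1 only 1 of them, OAS3, was called higher. OAS3, which makes the 2'-5' oligoadenylates that activate RNase L, had 4.63 and 4.51 FPKM in the Control libraries and 10.3 and 10.6 FPKM under siSIRT1, 2.29 times higher (log2 fold change 1.04, SE 0.10, adjusted p = 0.000144). No rise was called for the other OAS genes. OASL stood at 1.99 and 1.74 FPKM for Control and at 1.66 and 1.37 FPKM for siSIRT1 (log2 fold change -0.19, adjusted p = 0.325). OAS1 was at 0.74 and 1.09 FPKM against 0.93 and 0.73, and OAS2 at 0.24 and 0.10 FPKM against 0.22 and 0.42, both below the filter.

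IFIH1 (MDA5), the helicase that senses long double-stranded RNA, measured 2.20 and 2.47 FPKM with Control against 3.54 and 4.15 FPKM with siSIRT1 (log2 fold change 0.54, SE 0.13, adjusted p = 0.0122). The groups did not overlap, though the call was lost without Control replicate 1 (0.0815). EIF2AK2 (PKR), the kinase that stops translation on double-stranded RNA, had 13.7 and 15.4 FPKM in the Control libraries and 16.8 and 21.7 FPKM under siSIRT1 (log2 fold change 0.37, SE 0.12, adjusted p = 0.0413). This call was lost in the fit without a filter on low values (adjusted p = 0.148), under median-of-ratios scaling (0.0896), quantile normalization (0.116) and no mean-variance trend (0.0878), and without Control replicate 1 (0.18) or siSIRT1 replicate 2 (0.172).

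The remaining sensors were not called. DDX58 (RIG-I), which senses short double-stranded RNA with a 5' triphosphate, stood at 7.17 and 7.92 FPKM for Control and at 5.25 and 7.0 FPKM for siSIRT1 (adjusted p = 0.151). DHX58 (LGP2), a regulator of both helicases, measured 1.65 and 1.90 FPKM with Control against 1.34 and 0.89 FPKM with siSIRT1 (log2 fold change -0.40, adjusted p = 0.0754). ADAR, which edits adenosine to inosine in double-stranded RNA, had 50.1 and 53.9 FPKM in the Control libraries and 51.8 and 60.3 FPKM under siSIRT1 (adjusted p = 0.362). DDX58 was called lower without siSIRT1 replicate 2 (0.0273) and DHX58 without siSIRT1 replicate 1 (0.0396). For DDX58 and DHX58 both siSIRT1 values were under both Control values.

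**Figure D4:**
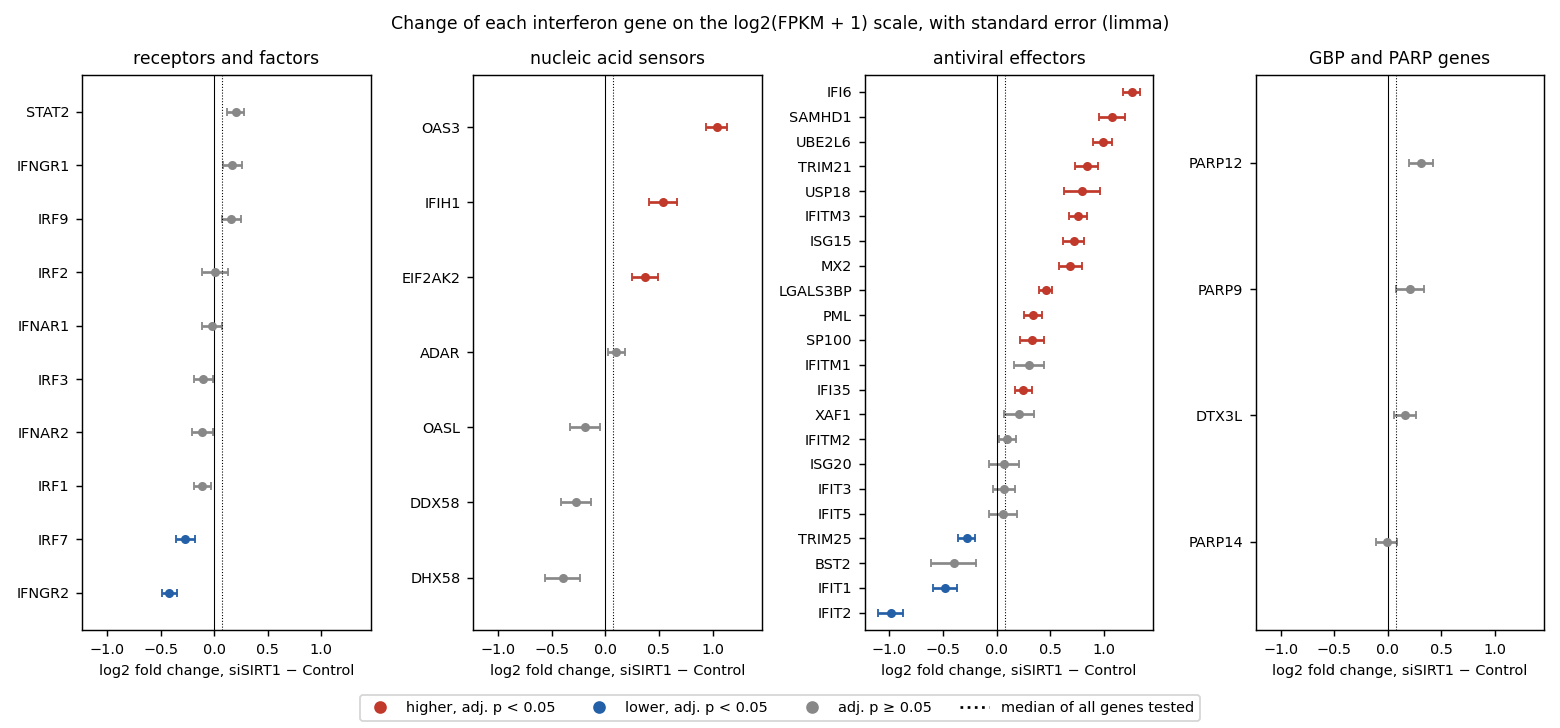
Log2 fold change of siSIRT1 against Control on log2(FPKM + 1) for the 43 tested interferon genes, in 1 panel per role, with points coloured by call, bars for the standard error and a dotted line at the median of all genes tested. Effectors ran from -0.99 (IFIT2) to 1.26 (IFI6), and receptors and factors from -0.42 (IFNGR2) to 0.20 (STAT2).

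All 10 receptors and factors were tested, and none rose at the threshold in limma, while 2 fell (20% lower, near the 13.1% of all genes tested, and 0% higher against 24.0%), with a median log2 fold change of -0.06. At an unadjusted p under 0.05, 1 was higher (STAT2). IFNGR2, the signaling chain of the interferon gamma receptor, stood at 57.8 and 55.9 FPKM for Control and at 40.6 and 43.8 FPKM for siSIRT1, 0.742 times Control (log2 fold change -0.42, SE 0.07, adjusted p = 0.00147). IRF7, the factor that amplifies interferon alpha production, measured 16.4 and 16.7 FPKM with Control against 14.4 and 12.9 FPKM with siSIRT1 (log2 fold change -0.27, SE 0.09, adjusted p = 0.0407). The transcripts of IFNGR2 shared 6.5% of their 50-base words with TMEM50B on the opposite strand, and those of IRF3 11.6% with BCL2L12, and the sources do not say that the counting used strand. The IRF7 call was lost in the fit without a filter on low values (adjusted p = 0.0805), in that without a mean-variance trend (0.0672), and without Control replicate 1 (0.154), Control replicate 2 (0.21) or siSIRT1 replicate 2 (0.108).

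The ligand-binding chain IFNGR1 had 9.27 and 9.83 FPKM in the Control libraries and 11.03 and 10.77 FPKM under siSIRT1 (adjusted p = 0.164). The type I receptor chains had overlapping groups: IFNAR1 had means of 9.89 and 9.76 FPKM (log2 difference -0.02, 95% interval -0.23 to 0.20) and IFNAR2 means of 12.5 and 11.5 FPKM (difference -0.11, interval -0.33 to 0.11). Of the complex that binds the ISRE, STAT2 stood at 14.8 and 14.3 FPKM for Control and at 16.7 and 17.1 FPKM for siSIRT1 (log2 fold change 0.20, adjusted p = 0.0724), and IRF9 was at 12.3 and 11.5 FPKM against 13.2 and 13.7 (0.16, adjusted p = 0.166). Both lay above Control in both siSIRT1 libraries without passing the test. IRF1, IRF2 and IRF3 were not called either, with log2 differences of -0.11, 0.01 and -0.10 and adjusted p of 0.32, 0.949 and 0.442.

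None of the 4 tested GBP and PARP genes was called by limma, where 37.1% of all genes tested were called. With only 4 genes, the absence of calls cannot be told from that share. Of the 4, 1 (PARP12) had an unadjusted p under 0.05, and their median log2 fold change was 0.18. PARP12, an ADP-ribosyltransferase that restricts virus replication, was nearest, with 5.97 and 5.26 FPKM in the Control libraries, against 7.31 and 7.05 FPKM in siSIRT1 (log2 fold change 0.31, SE 0.11, adjusted p = 0.0545). It passed without the mean-variance trend (0.0452). DTX3L and PARP9, an E3 ligase and its partner, had log2 differences of 0.16 and 0.21 (adjusted p = 0.215 and 0.256), and PARP14 one of -0.01 (adjusted p = 0.964). The interferon gamma-responsive GTPases GBP1, GBP2 and GBP3 stayed at or below 0.87 FPKM in every library and were not tested.

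In all, 13 of the 56 genes were below the filter, with 0 to 28 reads in a library and a highest value of 1.09 FPKM (OAS1, Control replicate 2). IFI27, IFI44, IFI44L, TRIM22, RSAD2, HERC5 and HERC6, several of which are among the strongest responders to added interferon in many cell types, were all at or under 0.89 FPKM in every library. RSAD2 (viperin) measured 0.49 and 0.46 FPKM with Control against 0.79 and 0.59 FPKM with siSIRT1, and IFI44L was at 0.02 FPKM in both Control libraries and 0 in both siSIRT1 libraries. When the filter was dropped, none of the 13 passed by limma, and 3 had an unadjusted p under 0.05: MX1 (adjusted p = 0.0915), GBP2 (0.101) and IFI27 (0.108).

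Of the 20 called genes, 15 stayed past the threshold in all 6 alternative fits across the 4 libraries, and 12 also did so when any 1 library was left out. These 12 were IFI6, SAMHD1, OAS3, UBE2L6, TRIM21, USP18, IFITM3, ISG15, MX2, LGALS3BP, IFIT2 and IFNGR2. None of the 20 changed sign in these fits. The groups did not overlap for any of them, so leaving out 1 library could not turn a sign. The fits with a replicate block, without a filter or without the mean-variance trend keep the same fold change by construction.

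**Figure D5:**
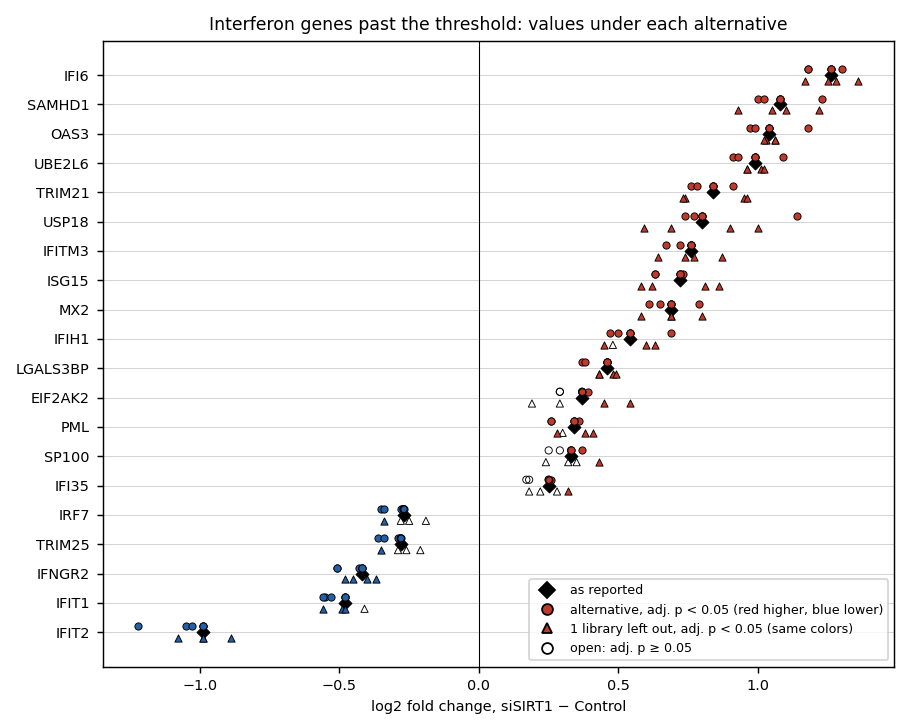
Log2 fold change of the 20 called interferon genes as reported (black diamonds), under the alternative fits (circles) and with 1 library left out (triangles), with open marks where the adjusted p was 0.05 or more. All values kept their side of 0, which leaving out 1 library could not alter because the groups did not overlap. IFI6 lay above 0 and IFIT2 below in every fit.

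The other interferon genes were taken from 3 further lists. Of 21 interferon ligands 7 were in the tables, and none passed the filter. IFNL1, a type III interferon, had 0.85 and 1.12 FPKM in the Control libraries and 0.15 and 0.28 FPKM under siSIRT1, about 5 and 7 reads against 1 and 2. IFNB1 was at 0.14 FPKM in Control replicate 1 and 0 in the other libraries, and IFNA1 and IFNA13 were at 0 in all 4.

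Of 16 further signaling genes 13 were tested, and IL10RB was called higher, 2 were called lower and 9 were not called. This leaves out IRF5, which passed the filter only through its siSIRT1 level. The 2 called lower were 15.4% of the 13, near the 13.1% of all genes tested, of which 24.0% were called higher. The interferon lambda receptor chain IL10RB rose from 20.1 and 23.2 FPKM to 31.9 and 31.3 FPKM (log2 fold change 0.53, adjusted p = 0.00152). IRF5, a factor downstream of Toll-like receptors, stood at 0.81 and 0.78 FPKM for Control and at 2.59 and 3.04 FPKM for siSIRT1, given as a description without a test. STAT3 fell from 125 and 129 FPKM to 95.8 and 103 FPKM (-0.35, adjusted p = 0.00244). The feedback inhibitor SOCS3, itself a STAT3 target, fell from 25.0 and 24.6 FPKM to 18.5 and 17.9 FPKM (-0.43, adjusted p = 0.00213). A link between the falls of STAT3 and SOCS3 was not tested.

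Of 16 genes that act between the sensors and the interferon genes, 14 were tested, and 3 rose, 1 fell and 10 were not called, with a median of 0.06. IKBKE, a kinase of IRF3 and IRF7, rose from 1.53 and 1.83 FPKM to 3.68 and 3.51 FPKM (log2 fold change 0.78, adjusted p = 0.00207). MYD88, the Toll-like receptor adaptor, rose from 10.5 and 9.37 FPKM to 14.3 and 13.3 FPKM (0.44, adjusted p = 0.00696), a call lost without Control replicate 2 (0.0693). RIOK3, a kinase linked to IFIH1 and DDX58 signaling, rose from 12.5 and 14.6 FPKM to 16.9 and 19.2 FPKM (0.39, adjusted p = 0.0171). The RIOK3 call was lost without a filter (0.0762), under quantile normalization (0.0545), and without Control replicate 1 (0.142) or siSIRT1 replicate 2 (0.0811). STING1, the adaptor of cytosolic DNA sensing, fell from 12.8 and 13.9 FPKM to 8.77 and 7.72 FPKM (-0.63, adjusted p = 0.00155). The share called in this list, 28.6%, was under the 37.1% of all genes tested.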

How the data were processed

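FPKM values per gene, 1 table per library with isoforms pooled per Entrez gene, were computed and deposited by the authors. The submitters' processing notes name Bowtie2, HISAT and RSEM, and ChIPseeker, without versions or roles, and the genome build of the RNA-seq is not given in the sources used here. The tables hold no read counts. Library depth was estimated from the steps between low FPKM values, and intervals derived from it cover counting error only. The 56 genes and the other gene lists were chosen with earlier results of these data known. CGAS and STING1 were matched by gene identifier.

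The 2 Control and 2 siSIRT1 libraries were compared with limma 3.58.1 in R 4.3.3 (lmFit, then eBayes allowing a trend of variance with level), without a block, using log2(FPKM + 1) of the 12191 genes whose mean across the 4 libraries reached 1 FPKM. Tests were two-sided with Benjamini-Hochberg adjustment over all these genes. An exact permutation test of 2 against 2 libraries cannot go below p = 0.333 and was not used. Alternatives were 0.1 as the pseudocount, all genes without a filter, median-of-ratios scaling, quantile normalization, a replicate block, no mean-variance trend, leaving out each library, and the thresholds of a fold over 1.2 with an unadjusted p under 0.001. All called genes were named with values, those with the largest changes in each role in full, and so were genes that were tested and not called. Genes below the filter were given by their range. Promoter sequences were those of RefSeq (GRCh38.p14), and 50-base words shared between transcripts were counted from GENCODE transcripts for genes in the tables.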

Additional observations from a re-analysis of the deposited data

How the results depend on the processing

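The direction of the 20 called interferon genes was the same in the alternatives run. For the fits without 1 library this was fixed in advance, because the groups of these genes did not overlap. With the thresholds of a 1.2-fold change and an unadjusted p under 0.001, 1367 genes were higher and 840 lower, and 9 and 2 of the interferon genes. Of the interferon genes, 3 were lower without a filter on low values and 3 without the mean-variance trend. Leaving out 1 library gave 1745 to 2844 genes higher and 965 to 1738 lower, and 11 to 15 and 2 to 5 of the interferon genes; the cause was not tested. Calls were 2023 higher and 2053 lower with median-of-ratios scaling and 2279 and 1996 with quantile normalization, which moved the median of all genes from 0.074 to -0.002 and 0.019. Median-of-ratios scaling turned IRF2 to -0.06, and IFIT3, IFIT5 and ISG20 to -0.01, and quantile normalization turned IRF2 to -0.03. Over the fits without 1 library, genes that crossed 0 ran from -0.08 to 0.05 (IFNAR1), -0.05 to 0.07 (IRF2), -0.21 to 0.02 (IRF3), 0 to 0.21 (ADAR), -0.02 to 0.13 (IFIT5), -0.08 to 0.22 (ISG20), -0.01 to 0.21 (IFITM2) and -0.07 to 0.06 (PARP14). The replicate numbers are shared by the groups, but nothing states a pairing, and the deviations of same-numbered libraries correlated at 0.123 across genes; with the replicate block 3485 genes were higher and 1908 lower, and 16 and 7 of the interferon genes, DHX58 (adjusted p = 0.0494), BST2 (0.0237) and PARP12 (0.0376) being added. The 13 interferon genes below the filter had 0 to 28 reads in a library, which limits the precision of their values.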
